A study of Mus musculus with 7 samples.

Results

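Complex I of the mitochondrial respiratory chain was followed in the left plantaris of mice through 14 days of muscle regrowth by the transcripts of its nuclear-encoded subunits. The members were chosen by symbol. Every platform row with a single gene symbol made of Nduf, one of the letters a, b, c, s or v, and a number was taken, and the row of highest mean log2 intensity stood for a gene with more than 1 row. The pattern gave 35 genes in 39 rows, of 19938 genes with a single-symbol row. All 35 passed the filter on low values, which kept 12102 genes with a value no lower than the array's median row somewhere in the course. Ndufb1 and Ndufb4 belong to the complex and were not analysed here.

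Male C57BL/6J mice aged 5 months had their hind limbs suspended for 2 weeks and then bore weight again. The array called d0 holds muscle taken at the end of suspension and is the control named in the labels, and d1, d3, d5, d7, d10 and d14 hold muscle after that many days of reloading. RNA of 6 animals was pooled at each time point and put on 1 Affymetrix Mouse Gene 1.0 ST array, so there are 7 arrays with no replicate, and all mice had been suspended. Intensities are linear and were normalized between arrays by the authors. A difference between 2 arrays therefore has an error that cannot be estimated, and it was not tested. Precision is limited by having 7 arrays. The error of a trend is the scatter of single pools around the fitted line, which includes any real bend in the course. A comparison of late with early days takes the days of each part as its units, so change within a part adds to its error.

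Complex I takes electrons from NADH, passes them through flavin and iron-sulphur clusters to ubiquinone, and pumps protons across the inner membrane. It is L-shaped. The peripheral arm in the matrix holds the NADH-oxidising and ubiquinone-reducing cores, the membrane arm pumps protons, and many accessory subunits surround both. The membrane core is encoded by mitochondrial DNA and the rest in the nucleus, and in muscle the amount of the complex follows mitochondrial content, which is greater in oxidative fibres.

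The genes were spread over the genome, with at most 5 of the 35 on one chromosome (chromosome 17). RefSeq windows of 300 bases ran from 250 before to 50 after the start of the transcript on GRCm38.p6. They were used for 31 of the 35 genes, as 33 windows. Windows on the chromosome that carries Ndufa2 were left out before counting. All windows here means the 32851 that remained. The 9 letters AAGATGGCG, bound by YY1 and also the core of the TISU element of short 5′ leaders, stood on either strand in 5 of 33 member windows (15.2%) and in 1.40% of all 32851 windows. They are shown because this was the set of letters, of 5 searched, with the widest gap between both shares. The 5 stretches are printed 5′ to 3′ along the transcript with the letters in capitals, which begin 23 to 36 bases after the start.

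Ndufa9: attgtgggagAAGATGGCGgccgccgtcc
Ndufc1: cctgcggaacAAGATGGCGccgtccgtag
Ndufs4: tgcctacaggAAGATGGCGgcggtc
Ndufs6: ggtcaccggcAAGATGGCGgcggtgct
Ndufs7: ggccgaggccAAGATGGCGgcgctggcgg

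These stretches lie at chr6:126849097-126849125 (- strand) for Ndufa9, chr3:51408915-51408943 (- strand) for Ndufc1, chr13:114388045-114388069 (- strand) for Ndufs4, chr13:73328433-73328459 (- strand) for Ndufs6 and chr10:80249463-80249491 (+ strand) for Ndufs7. The letters GCGCATGCG, the core of the site of NRF-1, a nuclear activator of respiratory genes, were in 2 of 33 member windows (6.06%) and 1.75% of all windows. Those are shown next, in capitals, with the reverse complement in Ndufa8 and overlapping matches on both strands in Ndufa11.

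Ndufa11: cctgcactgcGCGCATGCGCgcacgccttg
Ndufa8: tcgctggagaCGCATGCGCagatggtacc

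They lie at chr17:56717692-56717721 (+ strand) for Ndufa11 and chr2:36049329-36049357 (- strand) for Ndufa8. CCGGAAG, the letters of ETS factors, stood in 12.1% of member windows against 8.86% of all windows, the ERR half-site AAGGTCA in 6.06% against 4.72%, and the Sp1 letters GGGCGG in 42.4% against 35.7%. Matches were sought on both strands. The median GC content was 59.0% in member windows and 52.7% in all windows. These are matches of letters, with no measurement of binding. The 250 bases before the start are given for Ndufb8, whose trend had the lowest adjusted p among the members, and Ndufs6, whose trend was steepest, with the reverse complement of the Sp1 letters in capitals.

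Ndufb8: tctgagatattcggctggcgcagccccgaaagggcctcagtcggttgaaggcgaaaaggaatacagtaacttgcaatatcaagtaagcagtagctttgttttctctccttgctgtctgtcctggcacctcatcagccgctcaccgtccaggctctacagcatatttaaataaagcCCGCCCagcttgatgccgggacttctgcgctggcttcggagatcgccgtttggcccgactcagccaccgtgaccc
Ndufs6: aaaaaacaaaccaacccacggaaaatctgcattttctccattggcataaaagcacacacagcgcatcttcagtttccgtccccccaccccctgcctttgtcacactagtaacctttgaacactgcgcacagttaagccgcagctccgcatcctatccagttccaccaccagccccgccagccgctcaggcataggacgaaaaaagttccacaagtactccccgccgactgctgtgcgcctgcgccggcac

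The Ndufb8 bases are chr19:44555443-44555692 (- strand) and the Ndufs6 bases chr13:73328483-73328732 (- strand). The printed Ndufs6 bases hold none of the 5 sets of letters, which says nothing of the factors.

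Markers of fast muscle fibres, the main fibres of the plantaris, were high on every array. The summed intensity of 9 fast fibre markers was 120402 to 131814 over the arrays, with no single value under 8070.8, where the median of all rows was 128.1 to 131.8. The 8 slow fibre markers summed to 4545 to 8369. The median level of kept genes lay above d0 by 0.15 on the log2 scale at d1 and at d10 and by 0.06 to 0.09 on the other days. A value above d0 is therefore read against all kept genes. The d0 array held the lowest value of 39.4% of all kept genes, so results are given with d0 and without it. Equal lowest values were counted for the earlier array.

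As a group the complex I transcripts were low on the first day of reloading and higher from day 5. The median log2 ratio to d0 over the 35 genes was, from d1 to d14 in order, -0.08, 0.04, 0.21, 0.13, 0.21 and 0.18. Over all kept genes it was 0.10, 0.07, 0.05, 0.08, 0.10 and 0.08. With arrays set to equal medians the members' median was, in the same order, -0.23, -0.04 (a change of sign at d3), 0.15, 0.06, 0.06 and 0.09. As deposited, at d1, 8 of 35 members lay above d0, against 70.9% of all kept genes. At d14, 31 of 35 did, against 71.3%. The lowest point was thus an early array, and the later shift in the median was about 1.09 to 1.16-fold from d5 to d14, lowest at d7. Less the median of all kept genes, it was 0.16, 0.05, 0.11 and 0.10 on the log2 scale at d5, d7, d10 and d14.

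**Figure D1:**
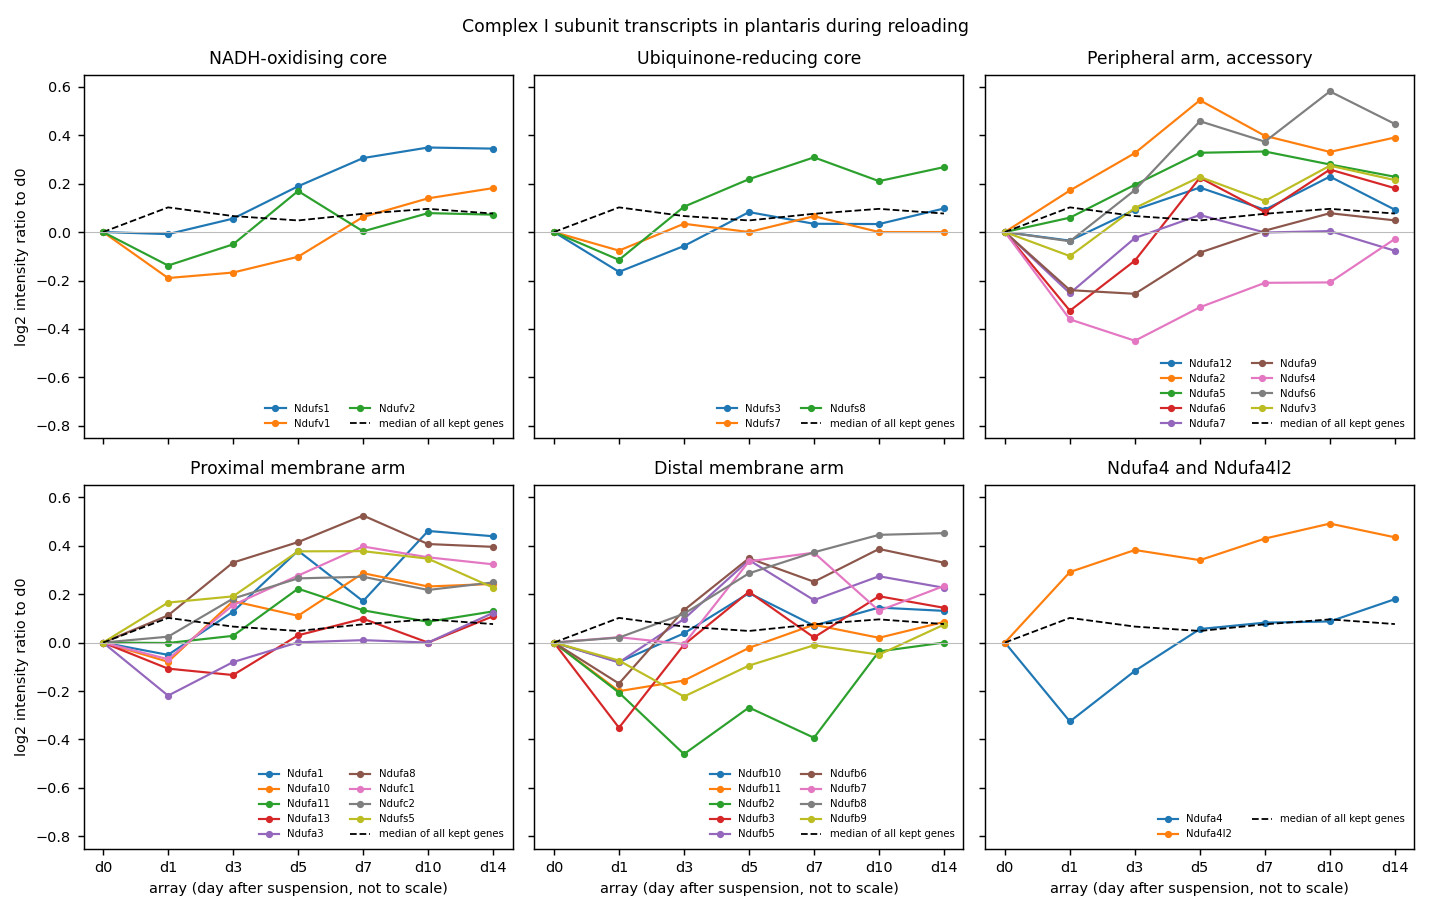
Log2 intensity ratio to d0 (y axis) of each complex I gene on the 7 arrays in order of time (x axis, not to scale), in panels by role, 1 line per gene, with the median of all kept genes dashed. Most lines dip at d1 and lie above 0 from d5, while Ndufs4, Ndufb2 and Ndufb9 stay below it through d10, and Ndufa2, Ndufa4l2, Ndufa5, Ndufa8, Ndufb8, Ndufc2 and Ndufs5 are above it on every array after d0.

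Changes of 1.2-fold or more were counted beside the share of all kept genes that passed the same bound. At d1, 1 member was at least 1.2-fold higher than d0 (22.5% of all kept genes) and 4 were at least 1.2-fold lower (4.2%). At d3 the counts were 3 higher (15.2%) and 2 lower (3.98%). At d5, 13 members were higher (13.5%) and 2 lower (4.73%). At d7, 13 were higher (18.2%) and 1 lower (4.25%). At d10, 13 were higher (19.8%) and 0 lower (3.5%). At d14, 10 were higher (12.9%) and 0 lower (2.45%). The share of members higher was below the background at d1 and d3 and above it from d5 on.

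With d0 left out, d1 was again the low array. Against d14, the last array, d1 was below in 35 of 35 members with a median log2 difference of -0.29, where all kept genes had 0.0029. With that median above 0, no more of all kept genes lay below d14 than above it. A gap of 1.2-fold or more below d14 was found at d1 for 19 of 35 members, against 5.35% of all kept genes. The median against d14 was -0.16 at d3, with 32 of 35 below, and 0.00 at d5. Between d5 and d14 the members' median moved by less than 0.05 on this scale. Step by step, 29 of 35 members went up from d1 to d3 (38.2% of all kept genes) and 32 from d3 to d5 (35.9%). Later steps were mixed and near the background, with 20 members up at d7 (56.8%), 19 at d10 (56.4%) and 16 at d14 (37.9%) against the array before.

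The array of lowest intensity was d1 for 22 of 35 members, against 10.6% of all kept genes. For the remaining members it was d0 (7) or d3 (6), and for none a later array. Among d1 to d14 alone the lowest array was d1 for 29 members (18.7% of all kept genes) and d3 for 6 (13.3%). The highest array was d5 for 7 members (6.14% of all kept genes), d7 for 9 (18.5%), d10 for 9 (21.3%), d14 for 8 (9.93%) and d0 for 2 (7.91%). It was d1 for 0 members and for 28.6% of all kept genes. Where lowest or highest values were equal, the earlier array was counted. Ndufb2, equal on d0 and d14, is thus counted at d0. Equal values on 2 or more arrays were found for 55.5% of all kept genes and 14.3% of members. The shares of all kept genes may therefore depend on that rule more than the member counts do.

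**Figure D2:**
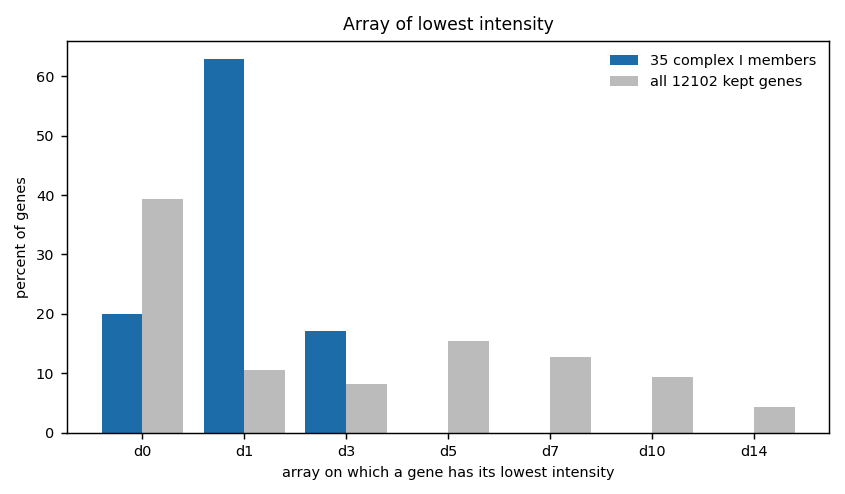
Percent of genes (y axis) whose lowest intensity is on each array (x axis), for the 35 complex I genes and all 12102 kept genes. The d1 array holds the lowest value of 22 of 35 members and of 10.6% of all kept genes. Equal values are counted for the earlier array.

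Trends over time were fitted with limma on the log2 of the day plus 1, so that a slope is the log2 change for each doubling of day plus 1. All p-values are two-sided and adjusted by Benjamini-Hochberg over the 12102 kept genes. Over d1 to d14 the slope was positive in 35 of 35 members, with a median of 0.10 against -0.0022 for all kept genes. With that median below 0, no more of all kept genes rose than fell. The members share these arrays and move together. Their correlation with the median of the other members had a median of 0.88 over d1 to d14. The 35 slopes are therefore not independent results. The slope was positive in 32 of 35 without the d1 array and in 34 of 35 after quantile normalization. No member passed the adjusted p of 0.05 in limma's test, which 0.157% of all kept genes passed upward and 0.198% downward. The lowest adjusted p in that fit were 0.0540 for Ndufb8, 0.0570 for Ndufa4, 0.0814 for Ndufs1 and 0.0924 for Ndufv1. At an unadjusted p of 0.05, 23 of 35 members had a positive slope (6.88% of all kept genes) and 0 a negative one (6.39%). Without the d1 array the count of positive slopes was 10, and the share of all kept genes in that fit is not given here.

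These adjusted values stood close to the threshold and crossed it under some settings. With a filter at percentile 75, Ndufb8 (adjusted p = 0.0248 in limma), Ndufa4 (0.0254), Ndufs1 (0.0410) and Ndufv1 (0.0428) passed. The same 4 passed after quantile normalization, and Ndufb8, Ndufs1 and Ndufv1 passed with equal array medians. Over all alternatives the adjusted p of Ndufb8 ranged from 0.0248 to 0.343, that of Ndufa4 from 0.0254 to 0.397, that of Ndufs1 from 0.0404 to 0.374 and that of Ndufv1 from 0.0362 to 0.303.

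With d0 included, 34 of 35 slopes were positive (31 with equal array medians) and the median was 0.08, against 0.01 for all kept genes. The share of all kept genes above 0 is not given here for these slopes or for the late against early comparison below. Again no member passed in limma, nor did any of the 12102 genes, and the lowest adjusted p among members was 0.205 (Ndufb8). At an unadjusted p of 0.05, 17 members had a positive slope (9.19% of all kept genes) and 0 a negative one (1.45%). The mean of d7, d10 and d14 exceeded that of d1, d3 and d5 in 35 of 35 members, by a median of 0.14 on the log2 scale against 0.01 for all kept genes. Without d1 it did so in 29 of 35, the exceptions being Ndufv2, Ndufa2, Ndufa7, Ndufa11, Ndufa12 and Ndufb10. In this comparison 0 members passed at an adjusted p of 0.05 in limma, and 11 were higher late at an unadjusted p of 0.05 (4.88%) with 0 lower (1.73%). Leaving out single arrays moved that 11 to between 5 (without d14) and 23 (without d5), with 6 without d10. The shares of all kept genes in those fits are not given here.

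**Figure D3:**
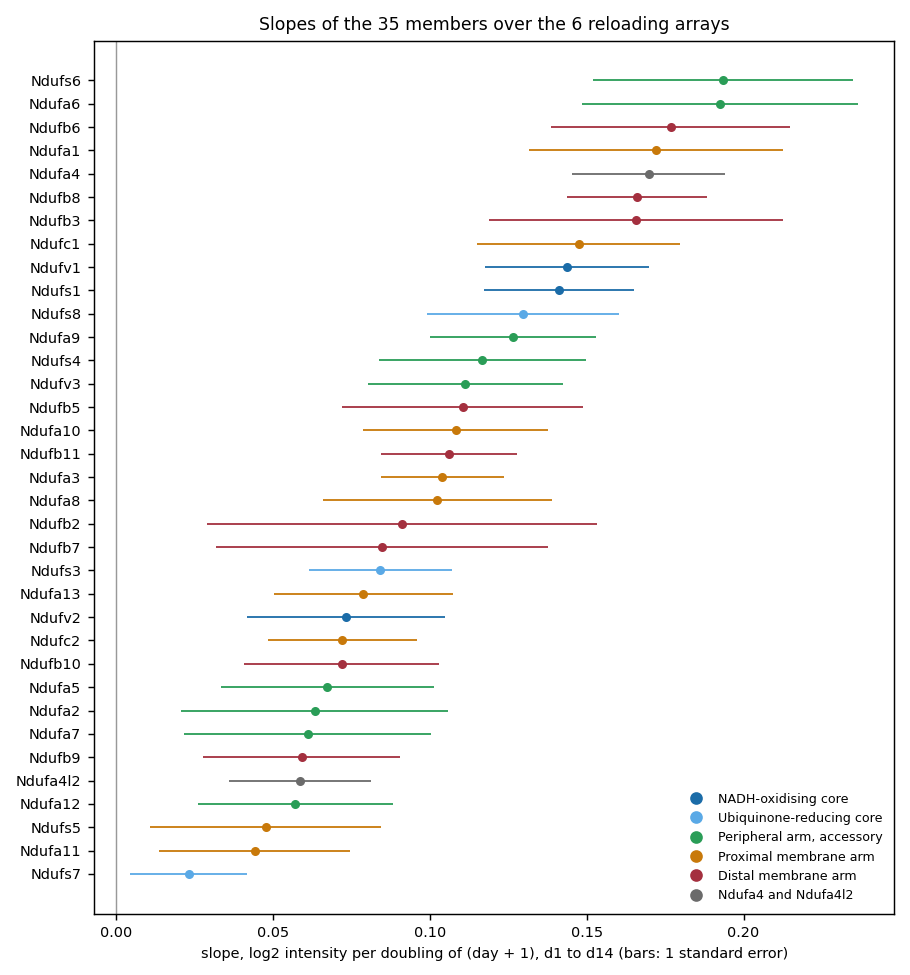
Slope of log2 intensity per doubling of day plus 1 over the 6 reloading arrays (x axis) for each member (y axis), with bars of 1 standard error and colours by role. All 35 points lie above 0, from 0.02 for Ndufs7 to 0.19 for Ndufs6, and none passes an adjusted p of 0.05.

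Intensities of single members are given below for d0 and then, in order, for the arrays of d1, d3, d5, d7, d10 and d14. Each of the 3 subunits of the NADH-oxidising core had its lowest intensity at d1. Ndufv1, which binds NADH and the flavin, read 4230.2 on d0, then 3709, 3768, 3941, 4417, 4658 and 4797. It was lowest at d1 and d3, passed d0 only from d7, and was 1.29-fold higher at d14 than at d1. Its slope over d1 to d14 was 0.14 ± 0.03 (SE). Ndufs1, the large subunit that carries several iron-sulphur clusters, read 1825 on d0, then 1814, 1897, 2080.2, 2255, 2324 and 2317. The d0 and d1 values were nearly equal, each later value was higher, and the slope over d1 to d14 was 0.14 ± 0.02 (SE). Ndufv2, an iron-sulphur subunit beside Ndufv1, read 7465 on d0, then 6783, 7207, 8395, 7479, 7881 and 7846. Its highest value was on d5 and d7 was back at the level of d0, and without d1 its late minus early difference changed from 0.06 to -0.0084.

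All 3 measured subunits of the ubiquinone-reducing core were also lowest at d1. Ndufs8, an iron-sulphur subunit on the way to ubiquinone, read 4442 on d0, then 4102, 4776, 5167, 5499.9, 5138 and 5348. It was above d0 on every array from d3. Ndufs3, a subunit of this core without an iron-sulphur cluster, read 3846 on d0, then 3432, 3695, 4071, 3938, 3934 and 4114. Only d1 and d3 were below d0, and the later values were within 1.07-fold of it. Ndufs7, which carries the last cluster before ubiquinone, read 15058 on d0, then 14279, 15419, 15058, 15756, 15058 and 15058. The same deposited value stood on 4 of its 7 arrays, and its slope over d1 to d14, 0.02 ± 0.02 (SE), was the lowest of the 35.

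Among 9 accessory subunits of the peripheral arm the median log2 ratio to d0 was -0.10 at d1, 0.22 at d5 and 0.18 at d14. Ndufs6, a zinc-binding subunit of the NADH-oxidising module, read 1315 on d0, then 1280.2, 1482, 1805, 1702, 1966 and 1791. Values from d5 on were all higher than those of d0 to d3, and its slope over d1 to d14, 0.19 ± 0.04 (SE, adjusted p = 0.127 in limma), was the steepest. Ndufa6, a protein of the LYR family that holds an acyl carrier protein, read 1684 on d0, then 1345, 1552, 1967, 1783, 2013 and 1909. It was lowest at d1 and above d0 from d5 on. Ndufa2, with a fold like that of thioredoxin, read 1182 on d0, then 1331, 1482, 1723, 1556, 1486 and 1549. All 6 reloading arrays were above d0 and d5 was the highest, so its late minus early difference was only 0.03, and -0.06 without d1.

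Ndufs4, which joins the complex late in assembly and whose loss causes a lethal brain disease in mice, was chosen for description after its values were seen. It read 8161 on d0, then 6356, 5979.9, 6581, 7057, 7066 and 8002. It was below d0 on all 6 reloading arrays, at least 1.2-fold on d1, d3 and d5, and was 0.98-fold of it at d14. Against d0 its course was unlike the group, with a correlation of 0.24 with the median of the other members over 7 arrays. Over d1 to d14, without d0, Ndufs4 had a correlation of 0.68. Its slope over d1 to d14 was 0.12 ± 0.03 (SE), close to the median of the group.

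In the proximal membrane arm the median of 9 members was -0.05 at d1 and 0.24 at d14. Ndufc1, a small subunit with 1 row more on the array, read 3141 on d0, then 2995, 3497, 3804, 4135, 4009 and 3929. Both of its rows had the lowest value at d1, and its late minus early difference was 0.24 in the row used and 0.21 in the other. Ndufa1, encoded on chromosome X and needed for assembly of the membrane arm, read 423 on d0, then 408, 462, 549.5, 476, 581 and 573. The values of d5, d10 and d14 were higher than the rest. Ndufa11, a subunit that spans the membrane several times, read 2217 on d0, then 2214, 2260.0, 2586, 2431, 2353 and 2424. It was flat until d3 and its late minus early difference was 0.03, and -0.0092 without d1.

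In the distal membrane arm the 9 members had a median of -0.08 at d1, 0.21 at d5 and 0.14 at d14. Ndufb8, a single-span subunit often used as a marker of assembled complex I, read 2051 on d0, then 2081, 2227, 2501, 2656, 2792 and 2805. The value was higher on each array than on the one before, with a slope of 0.17 ± 0.02 (SE) over d1 to d14. Ndufb6, another single-span subunit, read 4266 on d0, then 3794, 4681, 5429.9, 5077, 5576 and 5361. Its course was most like that of the other members, with a correlation of 0.98 with their median over 7 arrays. Ndufb10, which faces the intermembrane space, read 572 on d0, then 541, 587, 659, 600.4, 632 and 626. Its highest array was d5 and its late minus early difference was 0.06, or -0.0061 without d1.

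Ndufb2, a short subunit of the same arm chosen after its values were seen, stood apart. It read 363 on d0, then 314, 264, 301, 276, 354 and 363. It was at least 1.2-fold below d0 at d3, d5 and d7, and d14 equalled d0. Its correlation with the median of the other members was 0.078 over 7 arrays and 0.33 over d1 to d14, each the lowest of the 35. Over the group and 7 arrays this correlation had a median of 0.83. Of 35 members 27 exceeded 0.7, against 7.70% of all kept genes set against the members' median. Over d1 to d14 the median was 0.88, and 31 of 35 members exceeded 0.7, against 9.85% of all kept genes. The points share the arrays and their scaling, so these values are a description.

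Ndufa4 carries a complex I name and is now counted with complex IV. It read 2722 on d0, then 2172, 2510.0, 2829, 2881, 2891 and 3082. Its d1 value was the lowest and d14 the highest, with a slope of 0.17 ± 0.02 (SE) over d1 to d14. Ndufa4l2, its paralogue and a target of the hypoxia-inducible factor HIF-1, read 204 on d0, then 249, 265, 258, 274, 286 and 275. It alone of the members was at least 1.2-fold above d0 at d1, and it stayed above d0 on all 6 reloading arrays. Without both genes the count of members 1.2-fold higher at d1 was 0.

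Subunits outside the symbol rule were measured for 2 genes. Ndufab1, the mitochondrial acyl carrier protein, had log2 ratios to d0 of 0.01 at d1, 0.37 at d5 and 0.32 at d14. ND3, a membrane core subunit of the mitochondrial genome, had -0.18 at d1, 0.05 at d5 and -0.08 at d14. ND3 thus ended slightly below d0, where 31 of 35 nuclear members and 71.3% of all kept genes ended above it. It is a single gene whose ratio varied between arrays, with -0.25 at d7, so it does not stand for the mitochondrial subunits. Complex I assembly factors, which are not part of the finished enzyme, had a median of 0.04 at d1 and 0.17 at d14 over 16 genes. None of the 16 passed the adjusted p of 0.05 in the limma trend over d1 to d14, and at an unadjusted p of 0.05, 5 had a positive and 1 a negative slope. Dmac2, a factor for the distal membrane arm, had a late minus early difference of 0.22, and Ndufaf4 one of -0.25 with a log2 ratio to d0 of 0.66 at d1.

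The other respiratory complexes had a similar course. At d1 the median log2 ratio to d0 was -0.11 for 4 genes of complex II, -0.14 for 9 of complex III, -0.06 for 14 of complex IV and -0.09 for 15 of complex V, and at d14 it was 0.24, 0.20, 0.14 and 0.15. In the limma trend over d1 to d14, positive slopes at an adjusted p of 0.05 were found for 0 of 4, 1 of 9, 1 of 14 and 0 of 15 genes, and no negative ones. At an unadjusted p of 0.05 the positive slopes were 3, 6, 10 and 13. Sdhb, the iron-sulphur subunit of complex II, had a late minus early difference of 0.21 and Sdhd, a membrane anchor, 0.15. In complex III, Uqcrc1, a core protein, had 0.28 and Uqcrb 0.04. The complex III gene that passed was Uqcrq, with a slope of 0.16 (adjusted p = 0.0469 in limma). Cox4i1 of complex IV rose with a slope of 0.21 (adjusted p = 0.0469 in limma), and Cox6a1 had a late minus early difference of -0.19. Atp5k of the ATP synthase had a late minus early difference of 0.31, and Atp5b, its catalytic beta subunit, 0.08.

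Citric acid cycle genes, which supply the NADH, had a median of -0.11 at d1 and 0.17 at d14 over 16 genes. Idh2, the mitochondrial isocitrate dehydrogenase that makes NADPH, rose over d1 to d14 with a slope of 0.30 (adjusted p = 0.0469 in limma), the only one of the 16 to pass. Dlat, of the pyruvate dehydrogenase complex, had a late minus early difference of 0.07. Nuclear regulators of mitochondrial genes did not share the low first day. Their median was 0.32 at d1 and 0.23 at d14, against 0.10 and 0.08 for all kept genes. At d1, 14 of 14 were above d0, as were 70.9% of all kept genes. Some values were low, the lowest being 96.3, under the median of all rows (128.1 to 131.8). Over d1 to d14, 0 of 14 passed an adjusted p of 0.05 in limma, with 0 positive and 1 negative slope at an unadjusted p of 0.05. Ppargc1b, a coactivator of oxidative genes, had log2 ratios of 0.38 at d1 and 0.38 at d14, and Tfb1m, which methylates mitochondrial ribosomal RNA, 0.52 and 0.37. Mitochondrial ribosomal proteins had a median of 0.02 at d1 and 0.14 at d14 over 45 genes. The differences between these lists were not tested.

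**Figure D4:**
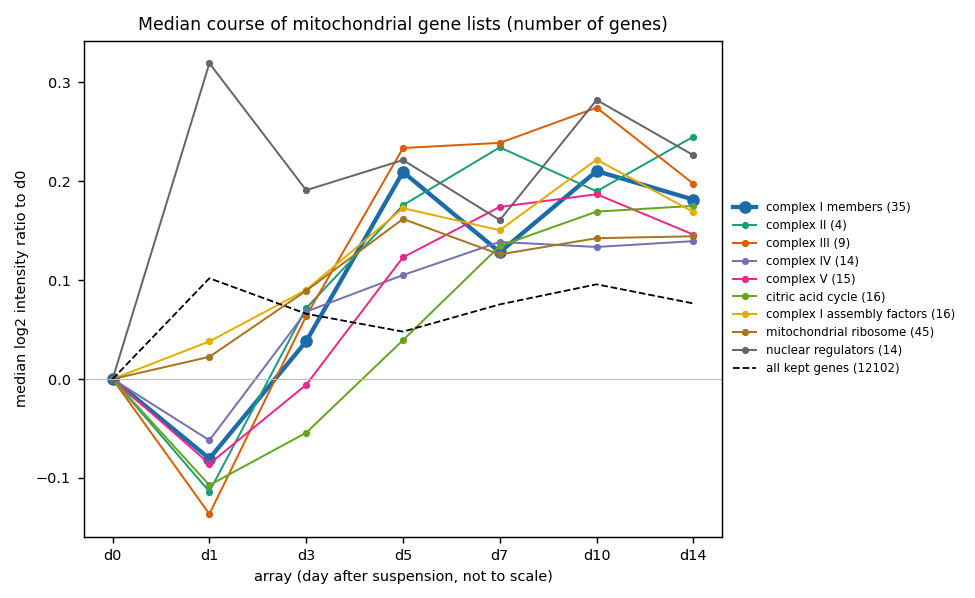
Median log2 ratio to d0 (y axis) of complex I and other mitochondrial gene lists on the 7 arrays (x axis, not to scale), with the median of all kept genes dashed. Complexes I to V and the citric acid cycle lie below 0 at d1 and above the dashed line at d14, while the nuclear regulators stand at 0.32 at d1.

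Other cells and fibre types moved over the same days. The macrophage markers summed to 3950.4 at d0 and then, in the same order, 5999.5, 5889, 5108, 3777, 4860.4 and 3520.3, and 8 of 8 kept markers were above d0 at d1. The neutrophil markers summed to 1405 at d0 and then 2964, 4071, 1907, 2535, 8748 and 1748, with 8 of 8 above d0 at d1. The lowest single values of these lists were 98.6 and 90.6, under the median of all rows (128.1 to 131.8). Without detection calls, such values were not told from background. The fast fibre sum was lowest at d3 (120402) and 123020 at d1, against 131814 at d0, and 0 of 9 fast markers were above d0 at d1. The slow fibre sum was highest at d3 (8369), and the endothelial sum went from 3959 at d0 to 5135 at d1 and 4860.5 at d14. Their part in the low early values of complex I was not tested, and in these whole-muscle pools fewer cells of a type and less RNA per cell cannot be told apart.

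Symbols of all 39 rows matched RefSeq unchanged. Pseudogenes or near-identical copies named Ndufa12-ps, Ndufs6b, Ndufa11b and Ndufs5-ps are listed there, so the values of Ndufa11, Ndufa12, Ndufs5 and Ndufs6 may include signal of those copies. The 4 genes with 2 rows each (Ndufa11, Ndufb11, Ndufc1 and Ndufs3) had a positive late minus early difference in both.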

How the data were processed

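Left plantaris RNA, 7 pools of 6 mice each, was taken up in Trizol, and its cDNA was biotinylated, per the labels' protocols. The RNA input is 100 ng in the design text but 250 ng in the labelling protocol. The authors deposited linear intensities, already normalized between arrays. The submitters' processing notes name Partek, and the normalization method and build were not given in the sources used here.

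Values were put on a log2 scale (pseudocount 0). A total of 21789 of 35556 rows had a single symbol in the platform annotation, and 3 rows with several symbols, one of them matching the pattern, were left out. Genes that were no lower than the array's median row on 1 array or more were kept. Each day was set against d0 as the log2 ratio of both arrays, untested. Slopes and the late against early difference came from limma 3.58.1 (R 4.3.3, with lmFit and eBayes with intensity trend) over all kept genes. The code of the fits was run on simulated, independent genes with noise taken from d3, d5 and d14 only. Those arrays were the closest to each other, so that run does not measure the error of these fits. Python 3.11.15, numpy 2.4.6, pandas 2.3.3 and matplotlib 3.10.9 were used.

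The members, lists and tests were chosen with earlier results of these data known. The core subunits, Ndufa4 and Ndufa4l2 were named, and in each other role the 2 highest and 1 lowest members by late minus early difference. Of the assembly factors, the other complexes, the citric acid cycle and the regulators the highest and the lowest were named. Uqcrq was added because it passed in the limma trend over d1 to d14. Alternatives were other filters, equal array medians, quantile normalization, averaging a gene's rows, a pseudocount of 16, other references, a threshold of 1.5-fold, a slope on the day itself, eBayes without trend and each time point left out.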

Additional observations from a re-analysis of the deposited data

How the results depend on the processing

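No paired analysis was possible because each time point is 1 pool with no replicate. Most member counts below have no share of all kept genes in the same setting beside them. Equal medians or another reference can move all genes, so such counts alone do not set the members apart from other genes. For the 19 members lower at d1 with d14 as the reference, the share of all kept genes was 5.35%. Setting arrays to equal medians over kept genes moved the members' median against d0 to -0.226 at d1, -0.0387 at d3 (a change of sign), 0.0567 at d10 and 0.0874 at d14. Under it 0, 1, 4 and 6 members were 1.2-fold higher at d1, d3, d10 and d14, and 13, 4, 2 and 1 were 1.2-fold lower at d1, d3, d7 and d10. It also left 9 positive slopes over 7 arrays and 5 late against early differences at an unadjusted p of 0.05. With d14 as the reference the medians were -0.29 at d1, -0.16 at d3, 0.00 at d5, -0.0424 at d7 and 0.0046 at d10, changing sign at d3 and d7. Then 0 members were 1.2-fold higher at d1, d3, d5, d7 and d10, and 19, 11 and 2 were lower at d1, d3 and d7. Against the mean of the 6 other arrays the medians were -0.21 at d1, -0.0663 at d3 (a change of sign), 0.11 at d5 and 0.11 at d10. Under that reference 0, 0, 1, 0, 2 and 0 members were 1.2-fold higher from d1 to d14, and 9, 1, 0 and 0 were lower at d1, d3, d5 and d7. At a threshold of 1.5-fold, 0 members were higher or lower on any day. At d1, 7 members were lower after quantile normalization and 0 higher with a filter at percentile 75 or without Ndufa4 and Ndufa4l2. A pseudocount of 16 left 1 member lower at d5. Over d1 to d14 the members past an adjusted p of 0.05 in limma were 4 with a filter at percentile 75, 4 after quantile normalization and 3 with equal array medians, and 0 in the other alternatives. Fewer genes are tested with that filter, and the cause in the other settings was not tested. Leaving out single arrays gave 16 to 23 positive slopes at an unadjusted p of 0.05 over 7 arrays, 10 (without d1) to 26 (without d5) over d1 to d14, and 5 to 23 for late against early. The late minus early difference with single arrays left out ran from -0.0084 (without d1) to 0.145 (without d5) for Ndufv2, -0.0624 to 0.124 for Ndufa2, -0.0092 to 0.103 for Ndufa11 and -0.0061 to 0.136 for Ndufb10. The other 277 group values and 216 single-gene values kept their direction and stayed within the bounds set for size. Signal over background could not be given, as no detection calls were used here.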

Other observations

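Exactly equal intensities recurred between arrays. An equal value on 2 or more arrays was found for 55.5% of the 12102 kept genes and for 5 of 35 complex I members (14.3%). Ndufs7 had the same intensity on 4 arrays, Ndufa12 on 3, and Ndufa13, Ndufa3 and Ndufb2 on 2 each. A difference of 0 between such arrays is an equality of deposited values.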
